A study of Mus musculus with 18 samples.

Results

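The 10 genes described here are heat shock and chaperone genes, chosen by symbol: Hspa1a, Hspa1b, Hspa8, Hspa5, Hsph1, Dnajb1, Hsp90aa1, Hspb1, Hspb8 and Hsf1. They are 10 of the 23420 gene symbols counted, and all 10 passed the filter on low counts. Retinas came from 9 wild type BALB/cJ mice, an albino strain, in 3 groups of 3. The naïve mice were untreated and saw no bright light. The vehicle mice were exposed to 15000 lux of white light for 1 h and injected daily with the solvent DMSO, starting before the light. The TD139 mice had the same light and daily injections of TD139, a small-molecule inhibitor of galectin-3, at 15 mg/kg. Retinas of both light-exposed groups were taken 4 days after light. The study used young adult mice of both sexes, but the labels do not give the sex of each. By design, the comparison of vehicle with naïve mice therefore holds light and injections together, and that of TD139 with vehicle mice the inhibitor. Differences between groups in handling or libraries cannot be told apart from these.

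Chaperones bind unfolded segments of other proteins and let them fold, or pass them on for degradation. HSP70 proteins do this in cycles of ATP binding and hydrolysis, which J-domain proteins start and nucleotide exchange factors such as HSP110 end. HSP90 proteins act later on a narrower set of clients, among them kinases and steroid receptors, while small heat shock proteins hold unfolded proteins without using ATP. When unfolded proteins accumulate in the cytosol, the transcription factor HSF1 is set free from chaperones, binds heat shock elements in promoters and induces the inducible members of these families. The endoplasmic reticulum has its own sensors, and the HSP70 protein of that compartment, BiP, is induced by the unfolded protein response. Photoreceptors make large amounts of rhodopsin and other membrane proteins, so the retina has a high load of protein folding.

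A heat shock element is built from inverted repeats of the unit GAA. The promoter stretches with such a repeat are shown because they are the letters that link HSF1, a member itself, to the inducible members. Promoters are those of RefSeq on GRCm38.p6, listed from 250 bases before to 50 after a start site, of which the 250 bases before it were searched, and 7 of the 10 genes had an entry. The 2-unit patterns searched were GAANNTTC and TTCNNGAA, on both strands. In the lines below the capitals mark the matched bases, and the strand shown is that of the gene.
Hspa1a (chr17:34972233-34972280, minus strand): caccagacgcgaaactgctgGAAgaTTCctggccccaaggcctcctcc
Hspa1b (chr17:34959315-34959362, minus strand): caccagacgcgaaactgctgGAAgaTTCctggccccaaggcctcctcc
Hspb1 (chr5:135887782-135887849, plus strand): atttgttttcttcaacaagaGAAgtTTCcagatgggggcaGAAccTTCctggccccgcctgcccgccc
Hsph1 (chr5:149636351-149636380, minus strand): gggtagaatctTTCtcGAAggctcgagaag
The Hspa1a and Hspa1b stretches lie 124 to 77 bases before their start sites and are identical. Hspb1 holds 2 matches, and Hsph1 holds 1, in both of its listed promoters. Of all 32851 promoters in the table, 12.84% hold such a match, so the pattern is common. A 3-unit element, with GAA and TTC alternating at the same spacing, was in none of the 7 genes and in 0.4657% of all promoters. No 2-unit match was in the windows of Hspb8, Dnajb1 or Hspa5.

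Hspa5 carries instead the pattern of the endoplasmic reticulum stress response element, CCAAT, 9 bases and CCACG, which is known to be bound by NF-Y and ATF6. It is shown because it ties Hspa5 to the unfolded protein response described below.
Hspa5 (chr2:34772020-34772048, plus strand): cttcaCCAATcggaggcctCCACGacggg
The GENCODE annotation, from which the positions below are taken, starts Hspa5 and Hsph1 further upstream than RefSeq, so this stretch and most of that of Hsph1 lie inside the annotated genes there. Among all promoters 0.1126% hold this pattern on either strand, with 33.85% holding CCAAT alone.

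Between 26171887 and 30201517 reads were counted on genes per mouse, and a count of 3 stands for 0.0993 to 0.115 CPM (read counts scaled to a common library size). The lowest count of a member in any mouse was 42, for Hspb1, so each member was measured above that floor, which covers counting error only. Nothing in the labels says how the mice were housed or processed in batches. Vehicle mouse 2 stood apart: its 15 lens markers summed to 4564 CPM, against 10.2 to 13.9 in the other vehicle mice, 101 to 264 in naïve mice and 2.33 to 171 in TD139 mice. Of the microglia and macrophage markers, 7 of 11 were higher in vehicle than in naïve mice, and their summed level was 29.8 to 32.8 CPM in naïve, 155 to 301 in vehicle and 23.1 to 99.4 in TD139 mice, where mouse 1 was the highest. The markers of reactive Müller glia and astrocytes summed to 324 to 483, 1207 to 2304 and 252 to 507 CPM, and 4 of 11 were higher in vehicle than in naïve mice. Those of homeostatic Müller glia summed to 4983 to 5745, 7363 to 8066 and 5400 to 7098 CPM, with 4 of 9 higher in vehicle than in naïve mice and 3 of 9 lower with TD139 than with vehicle. Those of the retinal pigment epithelium summed to 125 to 276, 230 to 491 and 135 to 200 CPM, with vehicle mouse 2 the highest, and 2 of 9 tested were lower with TD139 than with vehicle. Rod markers summed to 82076 to 94296, 47629 to 66437 and 66744 to 83502 CPM, and 10 of 12 were lower in vehicle than in naïve mice, so the labelled tissue was there. Between TD139 and vehicle mice 8 of 11 microglia markers and 9 of 11 markers of reactive glia were lower, and 6 of 12 rod markers higher, with TD139. Of all genes 7.8% were called between vehicle and naïve mice, while 16.2% were lower and 17.2% higher with TD139 than with vehicle. In whole retina, fewer cells of a type and less RNA per cell cannot be told apart, and the part of these cell types in the results below was not tested.

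Fold changes also moved with transcript length. Across 15066 genes, Spearman's rho between the log2 fold change and the length of the longest transcript was −0.11 for vehicle against naïve mice, 0.49 for TD139 against vehicle mice and 0.59 for TD139 against naïve mice. Genes are not independent replicates, so this is a description. In the comparison of TD139 with vehicle mice, the median log2 fold change was −0.38 for the shortest of 5 equal classes of genes by length, which holds Hspb1 and Hspb8, and 0.14 for the next to longest class, which holds Hsph1. The middle class, with a median of −0.02, holds Hspa1a, Hspa8, Hspa5, Hsp90aa1, Dnajb1 and Hsf1. A second value, corrected for this trend with length and GC content (the corrected value below), is therefore given beside many of the results.

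In untreated retinas the levels of the 10 genes spanned a wide range. Per kilobase of the longest transcript, Hsp90aa1 was the highest at 207 ± 4.44 CPM per kb (SD, n = 3), followed by Hspa8 at 115 ± 25.1 and Hspa5 at 84.7 ± 12.3. Dnajb1 (24.1 ± 1.40), Hsf1 (22.4 ± 1.66) and Hsph1 (14.6 ± 1.12) lay in the middle. The lowest were Hspa1a at 8.93 ± 2.33, Hspa1b at 6.54 ± 0.992, Hspb8 at 5.93 ± 0.534 and Hspb1 at 3.08 ± 1.30 CPM per kb. In this order Hspa8 and Hspa5, Dnajb1 and Hsf1, Hspa1a and Hspa1b, and Hspa1b and Hspb8 were neighbours whose mice overlapped.

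None of the 10 genes passed the test between vehicle and naïve mice. By edgeR 0 of 10 had an adjusted p-value under 0.05, against 7.8% of all genes tested, and by DESeq2 also 0. At an unadjusted p under 0.05 there were 3, Hspb8, Hsp90aa1 and Hsf1, against 27.6% of all genes. In these 3 genes the mice of both groups did not overlap, which held for 33.3% of all genes. The median log2 fold change of the 10 was 0.01, beside −0.00 for all genes tested. Between TD139 and vehicle mice, 3 of 10 passed, against a background of 33.4%: Hsp90aa1 and Hsph1 were higher (2 of 10, background 17.2%) and Hspb8 lower (1 of 10, background 16.2%) with TD139. At an unadjusted p under 0.05 there were 4, against 46.4%. Their groups did not overlap for 3 genes (Hsp90aa1, Hsf1 and Hspb8), against 51.5% of all genes, and the median was 0.26 beside −0.02. TD139 and naïve mice differed in 0 of 10 by edgeR, against 5.1% of genes, and in 1 at an unadjusted p under 0.05 (Hsph1, against 29.6%), which DESeq2 called. There the mice of both groups overlapped for every member, whereas 32.2% of genes had no overlap. No member was past the study's log2 fold change of 2 with an adjusted p under 0.05, against 1.24%, 1.65% and 0.0263% of genes in the 3 comparisons. The shares called were thus near or under the background.

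**Figure D1:**
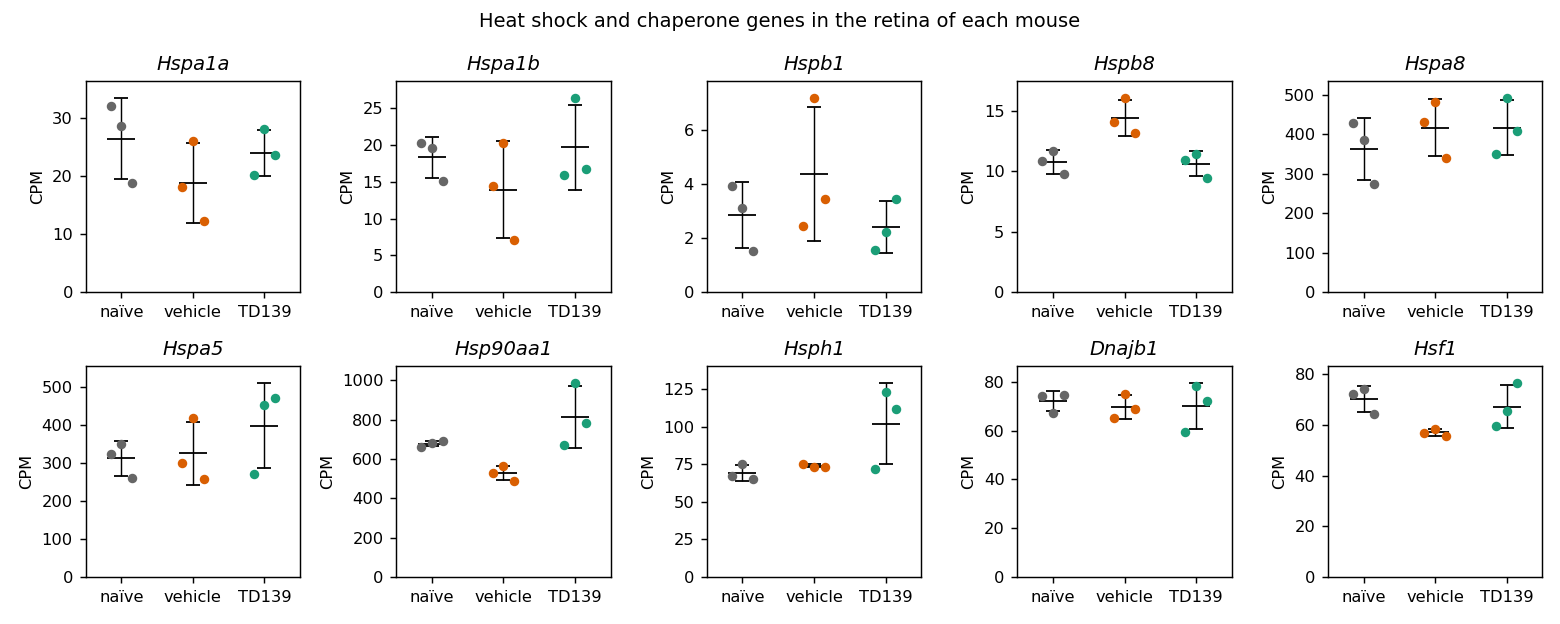
Level of each of the 10 genes in CPM (linear axes from 0, 1 scale per gene) in the 3 naïve, 3 vehicle and 3 TD139 mice, with each point 1 mouse, in the order of the mouse numbers from left to right, and the bars the mean and SD. Hsp90aa1 is lowest in the vehicle mice, Hspb8 highest, and Hspa1a, Hspa1b, Hspa8 and Dnajb1 overlap between all groups.

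Hsp90aa1 was the 1 member called between TD139 and vehicle mice under every alternative tried. Hsp90aa1 (chr12:110690605-110702728 on GRCm38, minus strand) encodes HSP90α, the stress-inducible cytosolic isoform. Its level was 661, 682 and 689 CPM in the naïve mice, 531, 564 and 490 CPM in the vehicle mice and 672, 985 and 780 CPM in the TD139 mice. Every vehicle mouse was thus below every mouse of the other groups, while TD139 and naïve mice overlapped. TD139 mice were 1.54-fold above vehicle mice, with a log2 fold change of 0.62 (SE 0.13, 95% interval 0.33 to 0.91, adjusted p = 0.00769). Without vehicle mouse 2 the value was 0.67 (adjusted p = 0.0174), and in the 9 fits that each lacked 1 mouse it stayed between 0.46 and 0.74 and passed the test each time. The corrected value was 0.58 (adjusted p = 0.0103). Against naïve mice, vehicle mice had a log2 fold change of −0.36 (SE 0.13, adjusted p = 0.104), which did not pass, but the corrected value of −0.42 did (adjusted p = 0.0306). TD139 against naïve mice gave 0.26 (95% interval −0.02 to 0.55, adjusted p = 0.204), with a corrected value of 0.16 (adjusted p = 0.550).

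The paralog Hsp90ab1 encodes HSP90β, the constitutive isoform, and is no member but belongs to the same machine. Its level was 736, 772 and 703 CPM in naïve, 871, 930 and 974 CPM in vehicle and 726, 677 and 706 CPM in TD139 mice. Here every vehicle mouse was above every other mouse, which is the opposite order to Hsp90aa1. The log2 fold change was 0.33 (SE 0.09, adjusted p = 0.0489) for vehicle against naïve mice and −0.40 (SE 0.09, adjusted p = 0.0100) for TD139 against vehicle mice. After the correction these were 0.20 (adjusted p = 0.113) and −0.13 (adjusted p = 0.263), so neither call held, and without vehicle mouse 2 the first did not pass either (0.32, adjusted p = 0.0875).

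The ratio of Hsp90aa1 to Hsp90ab1 counts does not depend on how libraries are scaled. It was chosen after the values had been seen. In naïve mice it was 0.899, 0.884 and 0.981, in vehicle mice 0.609, 0.606 and 0.503, and in TD139 mice 0.926, 1.45 and 1.10. Every vehicle mouse had the lower ratio than every mouse of the other groups. The mean log2 ratio differed by −0.69 between vehicle and naïve mice and by 1.00 between TD139 and vehicle mice. An exact two-sided permutation test gave p = 0.1 for each, the smallest that 3 against 3 mice can give. The corrected differences were −0.62 and 0.72. Both isoforms together make up the cytosolic HSP90 pool, and the ratio gives only how their transcripts divide it.

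**Figure D2:**
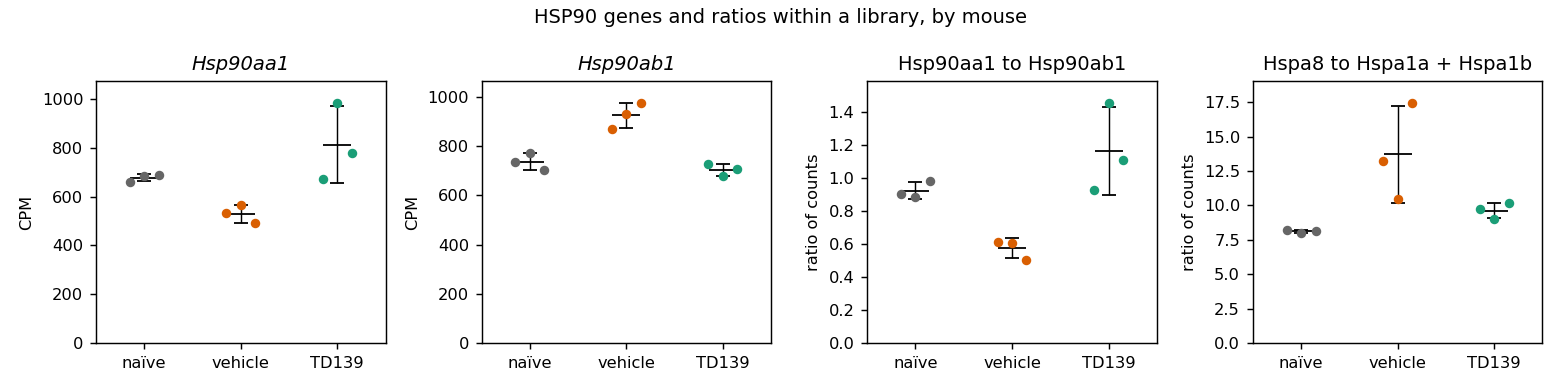
Hsp90aa1 and Hsp90ab1 in CPM, the ratio of their counts, and the ratio of Hspa8 to the summed Hspa1a and Hspa1b counts (no unit), all on linear axes from 0, with each point 1 mouse and the bars the mean and SD of 3 mice. The vehicle mice hold the lowest Hsp90aa1 to Hsp90ab1 ratios, 0.503 to 0.609, and the highest Hspa8 to Hspa1a plus Hspa1b ratios, 10.4 to 17.5.

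Hspa1a (chr17:34969190-34972156 on GRCm38, minus strand) and Hspa1b (chr17:34956436-34959238, minus strand) are neighbouring copies of the inducible cytosolic HSP70 gene, the classical transcripts of a heat shock. Counts of Hspa1a were 32.0, 28.7 and 18.8 CPM in naïve, 18.1, 26.0 and 12.4 CPM in vehicle and 20.3, 28.2 and 23.6 CPM in TD139 mice. Hspa1b had 20.2, 19.6 and 15.1 CPM, then 14.5, 20.2 and 7.05 CPM, and 15.9, 26.3 and 16.7 CPM. All 3 groups overlapped for both genes, with vehicle mouse 3 the lowest of the 9 in each. Vehicle against naïve mice gave a log2 fold change of −0.49 for Hspa1a (95% interval −1.10 to 0.12, adjusted p = 0.272) and −0.40 for Hspa1b (95% interval −1.17 to 0.37, adjusted p = 0.483). These intervals reach no 2-fold rise in either copy 4 days after light. With 1 mouse left out, the values ran from −0.80 to −0.26 for Hspa1a and from −0.77 to −0.07 for Hspa1b. With TD139 the values against vehicle were 0.35 (95% interval −0.26 to 0.96, adjusted p = 0.336) and 0.50 (−0.27 to 1.27, adjusted p = 0.280). They ran from 0.12 to 0.66 and from 0.18 to 0.87 with 1 mouse left out. The corrected values were 0.68 (adjusted p = 0.120) and 0.86 (adjusted p = 0.133), and with the correction and the replicate number as a block both were called, at 0.73 (adjusted p = 0.0406) and 0.91 (adjusted p = 0.0448).

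The split of reads between both copies is uncertain. Of the 2918 windows of 50 nt in the Hspa1a transcript, 58.81% occur in that of Hspa1b, and 62.31% of 2754 windows the other way round, while the share found in the testis gene Hspa1l was 7.951% and 6.79%, and 0 in Hspa8 or Hspa2. Their promoters are nearly the same too, with 247 of 250 upstream bases identical. How the authors' counting treated reads that match both is not given in the sources used here. Summed to 1 row, they gave a log2 fold change of −0.45 (adjusted p = 0.364), 0.42 (adjusted p = 0.310) and −0.04 (adjusted p = 0.951) in the 3 comparisons. An annotated gene, Gm20481, overlaps Hspa1a on the opposite strand. It was not among the symbols counted, and the counting is not stated to use strand.

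Hspa8 (chr9:40800984-40810087 on GRCm38, plus strand) encodes HSC70, the constitutive HSP70 that uncoats clathrin vesicles and serves synapses. Its introns host small nucleolar RNAs. Its level was 428, 386 and 275 CPM in naïve, 430, 483 and 339 CPM in vehicle and 351, 491 and 409 CPM in TD139 mice. The groups overlapped throughout. For TD139 against vehicle mice the log2 fold change was −0.00 (95% interval −0.41 to 0.41, adjusted p = 0.998). Vehicle against naïve mice gave 0.20 (−0.21 to 0.61, adjusted p = 0.514), and 0.03 to 0.34 with 1 mouse left out.

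The mice that were low or high within a group were often the same for Hspa8 and the inducible copies: naïve mouse 3 and vehicle mouse 3 were the lowest of their groups for Hspa1a, Hspa1b and Hspa8, and mouse 2 of the vehicle and of the TD139 group the highest. Counts of Hspa8 over the summed Hspa1a and Hspa1b, a ratio also chosen after the values were seen, were 8.19, 8.0 and 8.10 in naïve, 13.2, 10.4 and 17.5 in vehicle and 9.70, 9.01 and 10.1 in TD139 mice. Every vehicle mouse had a higher ratio than the rest. Every TD139 mouse was also above every naïve mouse. The mean log2 ratio differed by 0.73 between vehicle and naïve mice and by −0.48 between TD139 and vehicle mice. Between TD139 and naïve mice it differed by 0.25. An exact two-sided permutation test gave p = 0.1 for each, the smallest possible. Corrected with the mean of both copies, these differences were 0.72, −0.73 and −0.0081. The 10 early genes known to follow handling of tissue, such as Fos and Egr1, summed to 252 to 403 CPM in naïve, 256 to 323 in vehicle and 236 to 263 in TD139 mice, and their part in these levels was not tested.

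Hsph1 (chr5:149614287-149636376 on GRCm38, minus strand) encodes HSP105, an HSP110 protein that exchanges the nucleotide of HSP70. It had 67.2, 75.5 and 65.5 CPM in naïve, 75.3, 73.4 and 73.4 CPM in vehicle and 71.8, 123 and 112 CPM in TD139 mice. TD139 mice 2 and 3 were above all others, whereas mouse 1 lay under every vehicle mouse, so the groups overlapped. Against vehicle mice the log2 fold change was 0.47 (SE 0.16, adjusted p = 0.0477), just past the threshold. It was 0.31 after the correction (adjusted p = 0.189) and 0.67 without TD139 mouse 1 (adjusted p = 0.000886), and the call was lost when any of the other 8 mice was left out, with 0.46 and an adjusted p of 0.101 without vehicle mouse 2. Against naïve mice the value was 0.56 (SE 0.16, adjusted p = 0.0617). DESeq2 called this (0.56, adjusted p = 0.0150), and so did edgeR without TD139 mouse 1 (0.76, adjusted p = 0.0244), while the corrected value was 0.37 (adjusted p = 0.319). The vehicle mice did not differ detectably from naïve mice (0.09, 95% interval −0.27 to 0.45).

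Dnajb1 (chr8:83608193-83612653 on GRCm38, plus strand) encodes HSP40, the J-domain protein that hands substrates to HSP70 and is known to respond to HSF1. Its level was 74.2, 67.3 and 74.8 CPM in naïve, 65.4, 75.1 and 68.8 CPM in vehicle and 59.7, 78.2 and 72.2 CPM in TD139 mice. Its CPM had the narrowest range of the members, 1.31-fold between the highest and the lowest of the 9 mice. The log2 fold changes were −0.05 (95% interval −0.29 to 0.20) for vehicle against naïve, 0.01 (−0.24 to 0.25) for TD139 against vehicle and −0.04 (−0.29 to 0.20) for TD139 against naïve mice. Adjusted p-values were 0.810, 0.975 and 0.836. The corrected values were −0.17 (adjusted p = 0.357), 0.23 (adjusted p = 0.189) and 0.07 (adjusted p = 0.853).

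Hspa5 (chr2:34771970-34777547 on GRCm38, plus strand) encodes BiP, the HSP70 of the endoplasmic reticulum. The level was 324, 348 and 261 CPM in naïve, 300, 417 and 258 CPM in vehicle and 269, 453 and 470 CPM in TD139 mice. TD139 mice 2 and 3 were the highest of all, but mouse 1 was among the lowest. No comparison passed. The log2 fold change was 0.06 (95% interval −0.46 to 0.58, adjusted p = 0.881) for vehicle against naïve mice. TD139 mice gave 0.29 (−0.23 to 0.81, adjusted p = 0.352) against vehicle mice and 0.35 (−0.17 to 0.88, adjusted p = 0.344) against naïve mice. With 1 mouse left out, the values of the TD139 mice ran from 0.15 to 0.51 and from 0.23 to 0.57.

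Hspb1 (chr5:135887919-135889563 on GRCm38, plus strand) encodes HSP27 (HSP25 in mice), a small heat shock protein that binds unfolded proteins and actin and is known from reactive glia. It was the lowest member, with 3.92, 3.13 and 1.54 CPM in naïve, 2.47, 7.17 and 3.46 CPM in vehicle and 1.56, 2.23 and 3.44 CPM in TD139 mice. The highest value was that of vehicle mouse 2, the mouse with lens transcripts, and all groups overlapped. Vehicle against naïve mice gave 0.61 (95% interval −0.40 to 1.62, adjusted p = 0.412), which became 0.05 without that mouse (adjusted p = 0.952). TD139 against vehicle mice gave −0.86 (95% interval −1.88 to 0.16, adjusted p = 0.165), and −0.30 without it (adjusted p = 0.623). The corrected values were 0.40 (adjusted p = 0.509) and −0.18 (adjusted p = 0.776).

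Hspb8 (chr5:116408491-116422864 on GRCm38, minus strand) encodes HSP22, which works with the co-chaperone BAG3 in sending proteins to autophagy. It had 10.9, 11.7 and 9.75 CPM in naïve, 14.0, 16.0 and 13.1 CPM in vehicle and 11.0, 11.5 and 9.48 CPM in TD139 mice. All vehicle mice were above all others. The log2 fold change was 0.42 (SE 0.15, adjusted p = 0.0946) for vehicle against naïve mice and −0.44 (SE 0.15, adjusted p = 0.0411) for TD139 against vehicle mice. The first value was 0.24 after the correction (adjusted p = 0.247). The second was 0.00 after the correction (adjusted p = 0.989) and −0.35 without vehicle mouse 2 (adjusted p = 0.133), and it passed in 2 of the 9 fits with a mouse left out, those without naïve mouse 1 or naïve mouse 3.

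**Figure D3:**
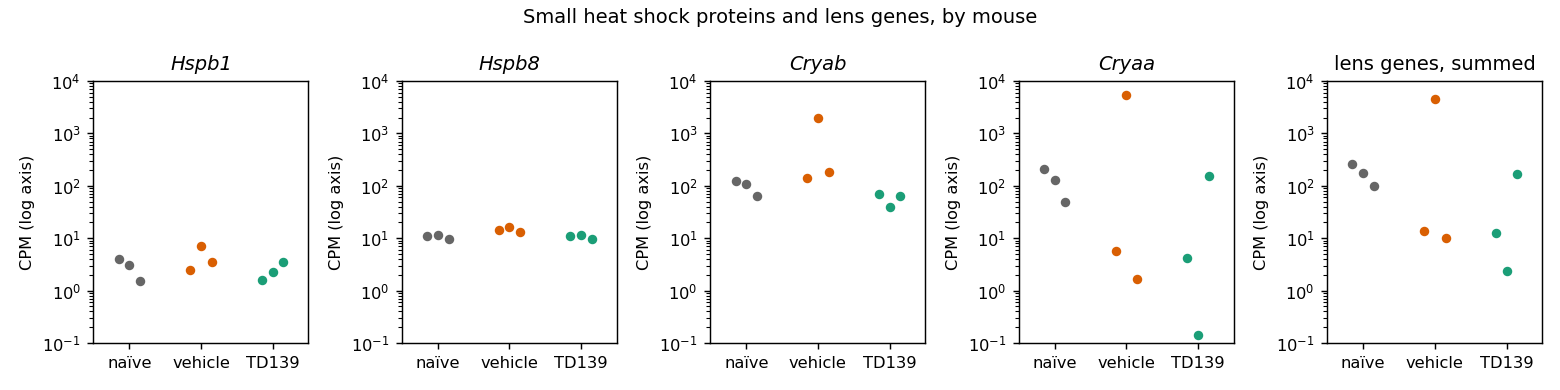
Hspb1, Hspb8, the crystallin genes Cryab and Cryaa, and the sum of the 15 lens markers in CPM on a log axis shared in range, with each point 1 mouse. Vehicle mouse 2 stands far above the rest for Cryaa (5504 CPM), Cryab (2008 CPM) and the lens sum (4564 CPM), and is the highest of the 9 for Hspb1 (7.17 CPM) and Hspb8 (16.0 CPM).

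Bag3, the partner of Hspb8, is a nucleotide exchange factor of HSP70 induced by stress. Its level was 7.18, 7.46 and 10.2 CPM in naïve, 14.2, 16.3 and 24.9 CPM in vehicle and 11.2, 7.41 and 5.33 CPM in TD139 mice. As for Hspb8, all vehicle mice were the highest. The log2 fold change was 1.16 (SE 0.29, adjusted p = 0.0386) for vehicle against naïve mice and −1.21 (SE 0.29, adjusted p = 0.0123) for TD139 against vehicle mice. After the correction both stayed past the threshold, at 0.98 (adjusted p = 0.0319) and −0.86 (adjusted p = 0.0422). Without vehicle mouse 2 the first was 1.24 (adjusted p = 0.0505), and it passed in 2 of the 9 fits with a mouse left out, the second in 7.

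Hsf1 (chr15:76477422-76501913 on GRCm38, plus strand) encodes the transcription factor of the heat shock response, whose activity is set mainly on the protein. The level was 72.1, 74.1 and 64.3 CPM in naïve, 56.9, 58.6 and 55.9 CPM in vehicle and 59.6, 65.6 and 76.5 CPM in TD139 mice. Vehicle mice lay close together and under every other mouse. The log2 fold change was −0.30 (SE 0.11, adjusted p = 0.102) for vehicle against naïve mice and 0.24 (SE 0.11, adjusted p = 0.106) for TD139 against vehicle mice. Neither passed in all 9 mice, the second did without TD139 mouse 1 (0.32, adjusted p = 0.0375), and after the correction both did, at −0.41 (adjusted p = 0.0300) and 0.45 (adjusted p = 0.0194). With the correction the members called were thus Hsp90aa1 and Hsf1, lower in vehicle than in naïve mice and higher in TD139 than in vehicle mice. Of all genes 18.8% and 22.9% were called there in either direction. No member was called between TD139 and naïve mice, where the correction left 0 genes of all tested.

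**Figure D4:**
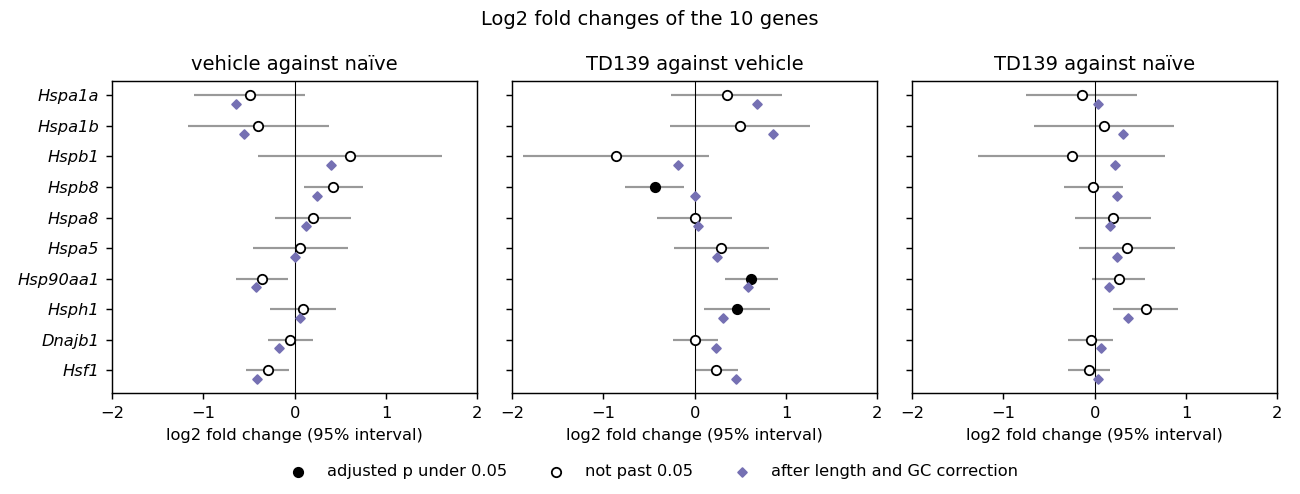
Log2 fold change of the 10 genes in the 3 comparisons, with circles for the fitted values (filled where the adjusted p is under 0.05), lines for the 95% interval and diamonds for the corrected value. Filled circles are seen only for TD139 against vehicle mice (Hspb8, Hsp90aa1 and Hsph1), and the diamond of Hspb8 lies at 0.00 there.

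The wider chaperone network was described with 10 lists by role, together 109 genes, of which 105 were tested. Pfdn6 was not among the symbols, and Hspb7, Hspb9 and Hsf5 did not pass the filter on low counts. Between vehicle and naïve mice 3 of 105 were called, Hsp90ab1, Bag3 and Serpinh1, all higher, which is 2.86% against 7.8% of all genes. TD139 against vehicle mice gave 29 calls (27.6% against 33.4%), of which 11 were higher and 18 lower with TD139. Against naïve mice 5 were called, all lower (among them Stub1, Pfdn2, Grpel1 and Clpp), 4.76% against 5.1%. The median log2 fold changes of the 105 were −0.03, −0.02 and −0.05. After the correction, the calls became 2 higher and 11 lower, 16 higher and 7 lower, and 0, together 13, 23 and 0 of 105, against 18.8%, 22.9% and 0 of all genes.

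Among the other cytosolic HSP70 and HSP110 genes 1 of 7 was called with TD139 against vehicle (33.4% of all genes). Hspa4l, an HSP110 gene, had 163 to 167 CPM in naïve, 120 to 154 in vehicle and 185 to 261 in TD139 mice, a log2 fold change of 0.65 (SE 0.13, adjusted p = 0.00708) that was −0.00 after the correction. Its relatives Hspa4 (0.25, adjusted p = 0.0598) and Hspa12a (0.25, adjusted p = 0.0713) did not pass. Of the 12 J-domain genes 4 were higher with TD139, against 17.2% of all genes: Dnajb14 of the endoplasmic reticulum membrane (1.16), Dnajc6, the auxilin of clathrin uncoating (0.45), Dnaja4 (0.41) and Dnajc5, the cysteine string protein of synaptic vesicles (0.37). Of these, Dnajb14 (0.60, adjusted p = 0.0340) and Dnaja4 (0.56, adjusted p = 0.0253) stayed past the threshold after the correction. The abundant Dnaja2 (−0.00) and Dnajc7 (−0.12) did not pass.

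Of the 14 genes of HSP90 and its co-chaperones 3 were lower with TD139 than with vehicle (16.2% of all genes), among them Hsp90ab1 and Cdc37, which loads kinases onto HSP90 (−0.38, adjusted p = 0.0252). Fkbp4, the immunophilin of steroid receptors, did not pass (−0.12, adjusted p = 0.378). Cdc37 was −0.69 after the correction (adjusted p = 0.0170). In the list of 10 HSP70 co-chaperones 4 were lower with TD139 than with vehicle, against the same 16.2%: Bag1 (−0.44), Bag3, Stub1 (−0.44) and Hspbp1 (−0.44). STUB1 is the ubiquitin ligase that marks clients of HSP70 and HSP90. After the correction Bag3 alone of these 4 was called.

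Of the 6 small heat shock genes tested beside the members, Cryab alone was called, with TD139 against vehicle (33.4% of all genes). Cryab encodes αB-crystallin, a small heat shock protein of lens, muscle and glia. It had 123, 108 and 63.4 CPM in naïve, 140, 2008 and 184 CPM in vehicle and 69.4, 38.8 and 63.1 CPM in TD139 mice. The groups of TD139 and vehicle mice did not overlap, with a log2 fold change of −3.77 (SE 1.16, adjusted p = 0.0492), but 1 mouse set its size: without vehicle mouse 2 it was −1.51 (adjusted p = 0.0180). The call was lost with the correction (−3.12, adjusted p = 0.0812). It was also lost, at a fold change of about the same size, without a filter on low counts (−3.76, adjusted p = 0.0624), with only these 2 groups in the fit (−3.77, adjusted p = 0.106) and on flow cell 1 (−3.74, adjusted p = 0.0542) or 2 alone (−3.82, adjusted p = 0.0510), and in 7 of the 9 fits with a mouse left out. Against naïve mice the vehicle mice gave 2.99 (adjusted p = 0.149), and 0.72 without that mouse (adjusted p = 0.188). Cryaa, the lens-enriched αA-crystallin, ranged from 1.68 to 5504 CPM among the vehicle mice and was not called (−5.10, SE 3.35). TD139 mice had 4.11, 0.139 and 156 CPM, with a mean of 53.5. The vehicle mice other than mouse 2 had 5.65 and 1.68 CPM, under that mean, so mouse 2 set the sign of this value. Hspb6 was also not called (−0.34, adjusted p = 0.123).

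In the chaperonin and prefoldin list, the machine that folds actin and tubulin, 2 of 13 genes tested were lower with TD139 than with vehicle (16.2% of all genes), Pfdn1 (−0.51) and Pfdn2 (−0.44), and the abundant subunits Cct5 (−0.16), Cct7 (−0.26) and Cct8 (−0.06) did not pass. Of the 11 mitochondrial genes 2 were lower, against the same share, Clpp, a matrix protease (−0.58), and Grpel1, the exchange factor of mitochondrial HSP70 (−0.39), while Hspa9, Lonp1 and Hspd1 had values of −0.16, 0.03 and 0.16 that did not pass. After the correction Clpp was 0.04, Pfdn1 −0.02 and Pfdn2 −0.11, none of them called, and Grpel1 was −0.38 (adjusted p = 0.0201). Cct7 (−0.36, adjusted p = 0.0367) and Hspd1 (0.35, adjusted p = 0.0259) were called with the correction alone.

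Among the 18 other chaperones of the endoplasmic reticulum, Serpinh1, the collagen chaperone HSP47, was the 1 call in vehicle against naïve mice (7.8% of all genes). It had 13.3, 15.0 and 11.2 CPM in naïve, 22.9, 36.0 and 17.8 CPM in vehicle and 16.8, 11.1 and 13.5 CPM in TD139 mice, with log2 fold changes of 0.95 (adjusted p = 0.0431) and −0.89 (adjusted p = 0.0207). Without vehicle mouse 2 neither passed (0.62, adjusted p = 0.0930, and −0.56, adjusted p = 0.0691), and after the correction the first did (0.77, adjusted p = 0.0300) and the second did not (−0.48, adjusted p = 0.115). With TD139 against vehicle 4 of 18 were called, against 33.4% of all genes. Beside Serpinh1, P4hb (−0.28) and Sil1 (−0.48) were lower and Hspa13 (0.55) was higher. None of these was called after the correction. The abundant Calr (−0.03), Hsp90b1 (0.30) and Canx (0.21) did not pass.

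Of the transducers of the unfolded protein response 4 of 10 were called with TD139 against vehicle (33.4% of all genes): Ern1, the sensor IRE1α (1.21, adjusted p = 0.0253), Sel1l, of the degradation complex (0.51, adjusted p = 0.0147), and Atf6, the sensor and factor named beside the Hspa5 element above (0.49, adjusted p = 0.0150), were higher, and Ddit3, the stress factor CHOP, was lower (−0.41, adjusted p = 0.0318). Ern1 stayed past the threshold after the correction (0.96, adjusted p = 0.0382), unlike Sel1l, Atf6 and Ddit3. Atf4 (0.10) and Syvn1 (0.26) did not pass, but both were called with the correction, at 0.56 (adjusted p = 0.0222) and 0.39 (adjusted p = 0.0479). The corrected calls of this list were then 5 higher and 0 lower, against 22.9% of all genes called in either direction. The share of all genes higher after the correction was not computed, and the corrected median of all genes was 0.07. In the heat shock factor list 3 of 5 genes tested were called, against 33.4% of all genes: Hsf2 was higher (0.46) and Hsf4, the lens factor (−0.59), and Hsbp1, which binds HSF1 trimers (−0.38), were lower. None of these 3 was called after the correction, nor did Hsbp1l1 pass (0.04).

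**Figure D5:**
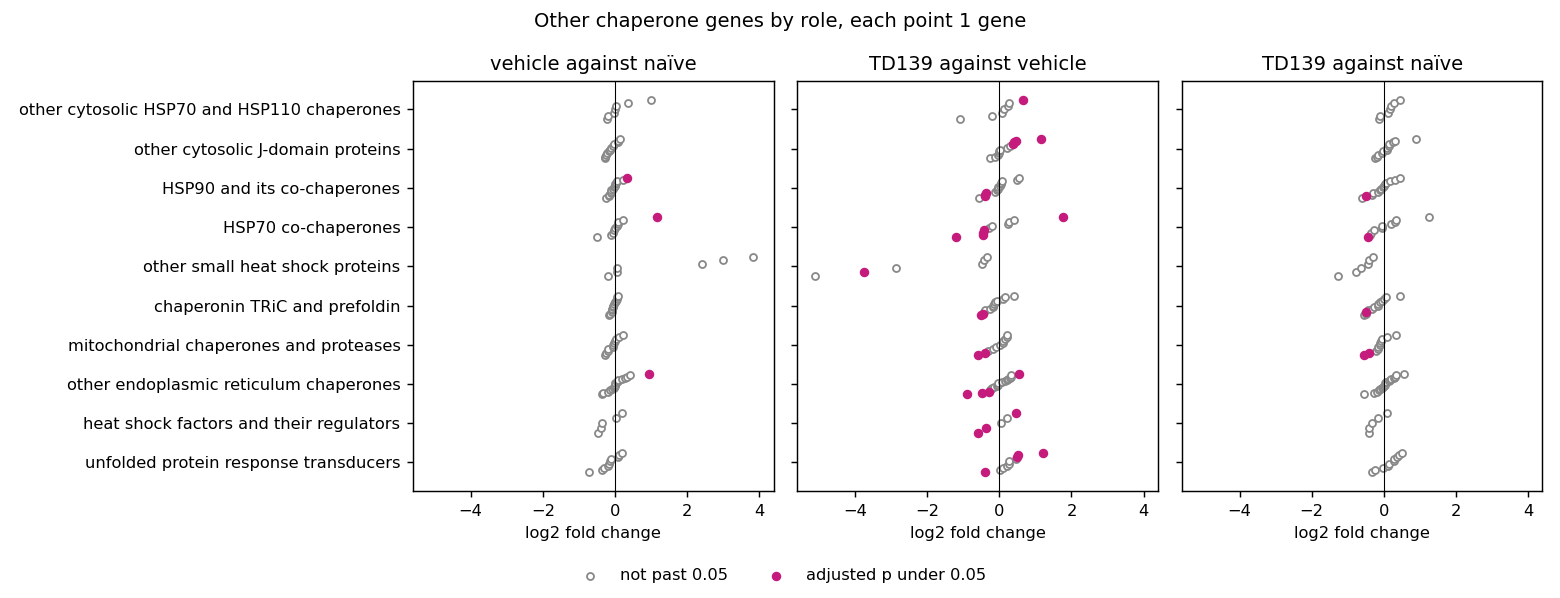
Log2 fold change of the 105 other chaperone genes in the 3 comparisons, by role, with each point 1 gene (a gene in 2 lists is drawn in both) and filled points those with an adjusted p under 0.05. Most calls are in the comparison of TD139 with vehicle mice, where 11 are higher and 18 lower (27.6%, against 33.4% of all genes). The points past a log2 fold change of 2 are the small heat shock genes Cryab, Cryaa and Hspb2.

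Genes with the most similar course over the 9 mice were sought for 3 members, as a description over 15195 other genes. Hspb1 was most like Krt23 (Pearson's r = 0.939, Spearman's rho = 0.900), Dpagt1 (0.923 and 0.750) and Zfp750 (0.919 and 0.833). Hspa1b was closest to D6Wsu163e (0.971 and 0.933), Brms1l (0.966 and 0.950) and Pigv (0.961 and 0.917). Hspa5 was nearest to Snapc3 (0.949 and 0.967), Xbp1 (0.915 and 0.933) and Cdca2 (0.915 and 0.783). Xbp1 encodes the factor that is spliced by IRE1α in the unfolded protein response. All points are mice, and they share library depth and the groups.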

How the data were processed

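Libraries of poly(A) RNA from the whole retinas of 9 mice were made with the Illumina stranded mRNA kit and read in single reads on 2 flow cells. The authors deposited, per mouse and flow cell, whole-number counts of reads per gene from BaseSpace RNA Express, on build mm10 per the submitters' processing notes. The aligner, annotation and rule for reads matching several genes are not given in the sources used here. The paper's data statement names normalized counts, but the values are unscaled. Nothing says whether mice of a group were bred or handled separately, so p-values measure the spread between these mice. The members and lists were chosen with earlier results of these data known.

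Both runs of a mouse were summed. Between runs, chi-square per degree of freedom was 1.63 to 1.80. Reads outside genes and ambiguous reads stayed out of library sizes and tests. Reads outside genes made up 19.1 to 19.9% in naïve, 16.5 to 19.4% in vehicle and 21.3 to 22.8% in TD139 mice. Ambiguous reads made up 0.374 to 0.402%, 0.417 to 0.471% and 0.303 to 0.363%. The part of these differences between groups in the results was not tested. All 9 mice were fitted in 1 model with edgeR 4.0.16 in R 4.3.3 (filterByExpr, 15196 genes, TMM, robust quasi-likelihood F test), with Benjamini-Hochberg adjustment over all genes tested and calls at an adjusted p under 0.05. The standard error is the log2 fold change over the square root of F. For the corrected values, splines (4 degrees of freedom) on log transcript length and GC content were fitted in each mouse and entered as an offset. Lengths and GC content came from GENCODE M21, joined to 98.36% of symbols. The fit held an intercept, so the offset also changed the scaling between mice set by TMM. DESeq2 1.42.0 was an alternative. Steps were tested on simulated data.

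Named genes are all members, and in each list the 3 genes with the highest mean count and every called gene where at most 5 were called. The 3 genes most like Hspb1, Hspa1b and Hspa5 were also named, and of the marker lists only sums. Some genes that meet this rule are not reported here. The authors' imaging and PCR were not analysed here.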

Additional observations from a re-analysis of the deposited data

How the results depend on the processing

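Percentages in brackets are the share of all genes with an adjusted p called under the same setting. Of the members called between TD139 and vehicle mice, Hsp90aa1 was called under all 21 other settings. The count of 3 (33.4% of all genes) became 1 without a filter on low counts (25.1%) and 1 on flow cell 2 alone (32.4%). It was 1 to 3 with a mouse left out (10.5% to 38.3%). The count of 0 (7.8%) between vehicle and naïve mice became 1 with only those groups in the fit (10.2%), 2 with the length and GC correction, alone (18.8%) or with the replicate number (17.3%), and 0 to 1 with a mouse left out (1 without TD139 mouse 1, Hsp90aa1, beside 12.9% of all genes). Between TD139 and naïve mice (5.1%) it became 1 with DESeq2 (20.2%) and 0 to 1 with a mouse left out (1 without TD139 mouse 1, 10.5%), Hsph1 in both.

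For the other chaperone genes, the count of 3 between vehicle and naïve mice was 5 with library size alone (7.57%), 5 with DESeq2 (16%), 1 on flow cell 2 (7.17%), 13 with the correction (18.8%), 10 with the correction and the replicate number (17.3%), and 0 to 4 with a mouse left out, where it was 0 without any 1 of the naïve or vehicle mice (0.00647% to 6.35%) and 1 without TD139 mouse 2 (6.41%) or 3 (5.84%). The count of 29 between TD139 and vehicle mice was 18 with the correction and the replicate number (20.5%) and 4 (without TD139 mouse 2, 10.5%) to 39 (without TD139 mouse 1, 38.3%) with a mouse left out, with 6 without TD139 mouse 3 (12.4%), 13 without vehicle mouse 3 (16.3%) and 19 without vehicle mouse 2 (24.5%). The count of 5 between TD139 and naïve mice was 23 with DESeq2 (20.2%), 0 with only those groups (0.00676%), 0 with the correction, alone or with the replicate number (0% in both), and 0 to 22 with a mouse left out, with 22 without naïve mouse 3 (17.3%), 14 without TD139 mouse 1 (10.5%), 3 without vehicle mouse 1 (2.9%) or 3 (2.06%), and 0 without any other (0%). The cause was not tested.

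The replicate number of the labels did not pair the mice. Same-numbered mice had correlations of their deviations of −0.06 to 0.28 for vehicle against naïve mice, −0.26 to −0.20 for TD139 against vehicle mice and −0.06 to 0.06 for TD139 against naïve mice, and 3, 0 and 0 of 6 mice correlated best with their own number. With the number as a replicate block, the members called were 0, 2 and 0 and the other chaperones called 0, 28 and 0, beside 5.92%, 31.4% and 0% of all genes, and Cryab was lost for TD139 against vehicle mice (−2.93, adjusted p = 0.154). With the block and the correction together, Hspa1a (0.73, adjusted p = 0.0406) and Hspa1b (0.91, adjusted p = 0.0448) were called for TD139 against vehicle mice, beside 20.5% of all genes.

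Single fold changes that turned sign were small. For vehicle against naïve mice, Hspa5 was −0.016 with the correction and the block and −0.16 to 0.21 with a mouse left out, and Dnajb1 was 0.046 with library size alone and 0.016 on flow cell 2. For TD139 against vehicle mice, Hspb8 was 0.0031 with the correction, Hspa8 was 0.0036 with RLE and with DESeq2, 0.0043 on flow cell 1, 0.0068 without a filter, 0.014 with the block, 0.040 with the correction, 0.057 with both, and −0.13 to 0.12 with a mouse left out, and Dnajb1 was −0.084 with library size alone, −0.0053 with a filter of 1 CPM, −0.042 on flow cell 2 and −0.079 to 0.11 with a mouse left out. For TD139 against naïve mice, the correction without and with the block gave 0.040 and 0.050 for Hspa1a, 0.22 and 0.18 for Hspb1, 0.24 and 0.24 for Hspb8, 0.066 and 0.054 for Dnajb1, and 0.039 and 0.034 for Hsf1, and Hspa1b was −0.037 when summed with Hspa1a. With a mouse left out, these were −0.34 to 0.019 (Hspa1a), −0.17 to 0.23 (Hspa1b), −0.58 to 0.044 (Hspb1), −0.082 to 0.071 (Hspb8), −0.13 to 0.062 (Dnajb1) and −0.15 to 0.020 (Hsf1). Of the ratios, chosen after seeing the data, Hspa8 to Hspa1a plus Hspa1b was −0.0081 with the correction for TD139 against naïve mice, against 0.25 without it. The correction took the median of all genes from −0.00 to −0.10 for vehicle against naïve mice and from −0.02 to 0.07 for TD139 against vehicle mice, and library size alone took it to 0.09 and −0.10.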
